A study of Mus musculus with 384 samples.

Results

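The genes described here are 9 genes of the type 17 axis, taken by name from the 50556 gene symbols of the count table: the cytokines Il17a, Il17f and Il22, the receptor chains Il23r, Il6ra, Il6st, Il1r1 and Il1r2, and the transcription factor Stat3. All 9 symbols were in the table. They were followed in mouse ear-skin regulatory T (Treg) cells, sorted as single cells into 87 wells on each of 4 plates. Wells with at least 500 genes and at least 10000 counts were kept, 120 from vehicle and 82 from imiquimod mice. In these wells 8 of the 9 genes had a count, and Il17a had none.

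Vehicle mice and mice treated with 5% imiquimod, a Toll-like receptor agonist that gives a psoriasis-like skin inflammation, were compared after topical treatment of the ears up to day 3. Each treatment had 2 mice and 2 plates, and the labels tie no plate to a mouse and give no genotype, strain, age or sex. The kept wells numbered 62 and 58 on vehicle plates 1 and 2, and 38 and 44 on imiquimod plates 1 and 2. Each plate also held wells of 10 Treg cells, 16 in all, and empty wells, 20 in all, whose labels give no treatment.

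Type 17 cells are lymphocytes that make IL-17A, IL-17F and IL-22, cytokines that act on keratinocytes and drive neutrophil recruitment, and they are central to psoriasis-like skin inflammation. IL-6 signals through its receptor chain (Il6ra) and the shared chain gp130 (Il6st) to STAT3, IL-23 signals through Il23r and Il12rb1 to STAT3 as well, and IL-1 acts through Il1r1 while the decoy receptor Il1r2 binds IL-1 without signalling. Treg cells in barrier tissues are known to share parts of this programme, including STAT3 and the decoy receptor, while STAT3-driven signals can oppose Foxp3 expression.

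Kept wells held between 47481 and 5946386 counts, so that 1 count stood for 21.1 CPM (each well or sum brought to a common total) in the shallowest well and for less in the others. Markers of the sorted identity were present, and all 7 Treg markers had counts. A T cell receptor or CD3 gene had a count in 180 of the kept wells (89.1%). Foxp3, which defines Treg cells, had a count in 75 (37.1%). Markers of other cells were also present: a neutrophil marker in 11.4% of kept wells (5 of 7 markers, with Ly6g and Retnlg at 0), a γδ T cell marker in 23.8% (4 of 7, with Trdc, Tcrd and Trgc1 at 0) and an innate lymphoid marker in 51.0% (4 of 5, with Ncr1 at 0). The αβ T cell receptor constant symbols Trac, Trbc1 and Trbc2 were at 0 as well, so a 0 for the γδ constant symbols says nothing about identity. A dendritic or Langerhans marker was in 38.1% of kept wells, a macrophage or monocyte marker in 33.7% and an erythroid marker in 27.7%. By plate, an erythroid marker was in 3.23% and 22.4% of vehicle wells and in 55.3% and 45.5% of imiquimod wells. Endothelial (14.9%) and fibroblast (10.4%) markers were found too, so a marker count in some wells does not set the identity of a cell. The empty wells held up to 1527760 counts, and among the 9 genes only Il22 had a count in any of them, 1 count in 1 well. A T cell receptor or CD3 gene had a count in 3 of the 20 empty wells, all on vehicle plate 2. Such a count is therefore not free of background. No molecular identifiers are mentioned in the labels' protocols. Copies of 1 molecule can therefore count more than once, and all intervals and limits cover counting error only.

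The cytokines were rare or absent. Il17a, the signature cytokine of type 17 cells, had no count in any kept well. At this number of wells the limit is 1.49% of wells, and 0.00842 CPM over all kept counts. Per plate the same limit was 4.84% and 5.17% of wells for vehicle and 7.89% and 6.82% for imiquimod. The single-cell wells that were not kept had no Il17a count either. Il17f, its close relative, had 1 count in 1 well of vehicle plate 2 and 1 count in 1 well of imiquimod plate 2, and both wells also held Il22. A single count is the lowest value a well can have, and neither well held Foxp3.

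Il22, the cytokine that acts on epithelial cells, was the most often detected of the cytokines and was always low. It had a count in 7 of 62 and 9 of 58 wells of the vehicle plates and in 0 of 38 and 2 of 44 wells of the imiquimod plates. The 18 wells held between 1 and 37 counts each, and the highest level was 101.5 CPM. Both vehicle plates lay above both imiquimod plates in the share of wells. The 0 on imiquimod plate 1 allows up to 7.89% of wells. The summed level was 0.506 and 1.35 CPM on the vehicle plates and 0 and 0.279 CPM on the imiquimod plates, after TMM scaling of the plate sums. Il22 has a near-identical copy, Iltifb, that had 7 counts in 4 wells, all of which also held Il22, so the split of reads between these symbols is uncertain. IL-22 is also made by γδ T cells and innate lymphoid cells. Of the γδ T cell markers, 4 of 7 had a count, and their summed level was 1.07 and 123.5 CPM on the vehicle plates and 10.8 and 11.3 CPM on the imiquimod plates. Of the innate lymphoid markers, 4 of 5 had a count, at 1015 and 840 CPM for vehicle and 484 and 629 CPM for imiquimod, so this list was also lower on both imiquimod plates. In the Il22 wells the γδ T cell markers were at 0.391 CPM, against 41.7 CPM in the other kept wells. They had a count in 3 of the 18 Il22 wells and in 23.8% of all kept wells. The innate lymphoid markers were at 1912 CPM in the Il22 wells, against 706 CPM in the other kept wells. They had a count in 14 of the 18 Il22 wells and in 51.0% of all kept wells. The part of either list in the Il22 values was not tested. A T cell receptor or CD3 count was present in 15 of the 18 Il22 wells.

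Among the receptor chains, Il23r, the chain specific to IL-23, rested on a pair of wells. It had a count in 5 of 62 and 4 of 58 vehicle wells and in 0 of 38 and 1 of 44 imiquimod wells. Of its 3702 counts, 1661 and 2002 came from 2 wells of vehicle plate 1 (2385 and 865 CPM), and the other 8 wells held between 1 and 22 counts. Both high wells held Foxp3, and 1 of them held no T cell receptor or CD3 count. Summed levels were 37.3 and 0.110 CPM on the vehicle plates and 0 and 0.0107 CPM on the imiquimod plates, so the vehicle plates differed from each other more than vehicle plate 2 differed from the imiquimod plates.

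Il6ra, which binds IL-6, had counts in 10 of 62, 5 of 58, 1 of 38 and 4 of 44 wells of vehicle plates 1 and 2 and imiquimod plates 1 and 2. Its summed level was 67.0 and 68.3 CPM on the vehicle plates, 0.0214 CPM on imiquimod plate 1 and 201.7 CPM on imiquimod plate 2. The 2 imiquimod plates lay on either side of the vehicle plates. On imiquimod plate 2, 1 well with 13387 counts gave 71.1% of the plate's Il6ra counts, and on vehicle plate 2, 1 well with 7806 counts gave 89.98%. The fitted log2 fold change was 0.58 ± 2.71 (SE, edgeR adjusted p 0.97), and without imiquimod plate 2 it was -11.44 (adjusted p 0.137).

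Il6st encodes gp130, the signalling chain shared by the IL-6 family. It had a count in 15 of 62 (24.2%) and 9 of 58 (15.5%) vehicle wells and in 4 of 38 (10.5%) and 4 of 44 (9.09%) imiquimod wells. Its summed level was 267.9 and 120.5 CPM on the vehicle plates and 47.7 and 18.1 CPM on the imiquimod plates. Both imiquimod plates lay below both vehicle plates on each measure. The fitted log2 fold change of imiquimod over vehicle was -2.56 ± 2.06 (SE), with an adjusted p of 0.69 in edgeR's quasi-likelihood test, so the difference did not pass the test.

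Il1r1, the signalling receptor of IL-1, was detected in as many wells as Il22, with 4 wells in common. That is 22.2% of the Il22 wells, and 7.61% of the wells without Il22 held Il1r1. Its counts lay in 7 of 62 and 9 of 58 vehicle wells and in 0 of 38 and 2 of 44 imiquimod wells, and 12 of these 18 wells held 10 counts or fewer. The 4 wells with more than 100 counts, with 435 at most, were all vehicle wells. Summed levels were 2.73 and 7.86 CPM on the vehicle plates and 0 and 0.0214 CPM on the imiquimod plates, without overlap between the treatments.

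Il1r2, the decoy receptor of IL-1, was found in few wells but at high level in those. It had counts in 4 of 62, 9 of 58, 4 of 38 and 2 of 44 wells, and 17 of the 19 wells held more than 100 counts, with a median of 1393 CPM and a highest value of 14922 CPM. Its summed level was 360.6 and 295.97 CPM on the vehicle plates and 448 and 115.4 CPM on the imiquimod plates, so the plates of the treatments overlapped. Before TMM scaling they did not, at 393.8 and 378.2 CPM for vehicle and 311.1 and 108.5 CPM for imiquimod. The fitted log2 fold change was -0.22 ± 1.22 (SE), with an edgeR adjusted p of 0.98, and its sign depended on the scaling (0.38 with DESeq2 size factors). Neutrophils also express this receptor: 3 of the 19 wells (15.8%) held a count of a neutrophil marker, against 10.9% of all other kept wells, and 17 of the 19 held a T cell receptor or CD3 count. The summed level of the neutrophil markers went the other way, at 44.6 CPM in the Il1r2 wells and 184.5 CPM in the others. The median Il1r2 well held 2141 genes and the median other kept well 1073.

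Stat3, the transcription factor downstream of the IL-6 and IL-23 receptors, was the most widely detected of the 9 genes. It had a count in 34 of 62 (54.8%), 28 of 58 (48.3%), 9 of 38 (23.7%) and 21 of 44 (47.7%) wells of vehicle plates 1 and 2 and imiquimod plates 1 and 2. Its summed level was 1196 and 1296 CPM on the vehicle plates, 183.9 CPM on imiquimod plate 1 and 1578 CPM on imiquimod plate 2. Imiquimod plate 1 stood apart, and imiquimod plate 2 was close to the vehicle plates in share. In level imiquimod plate 2 was above both vehicle plates after TMM scaling and between them before it (1306 and 1657 CPM for vehicle, 1485 CPM for imiquimod plate 2). The log2 fold change was -0.50 ± 0.87 (SE, edgeR adjusted p 0.90), and without imiquimod plate 1 it was 0.44.

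**Figure D1:**
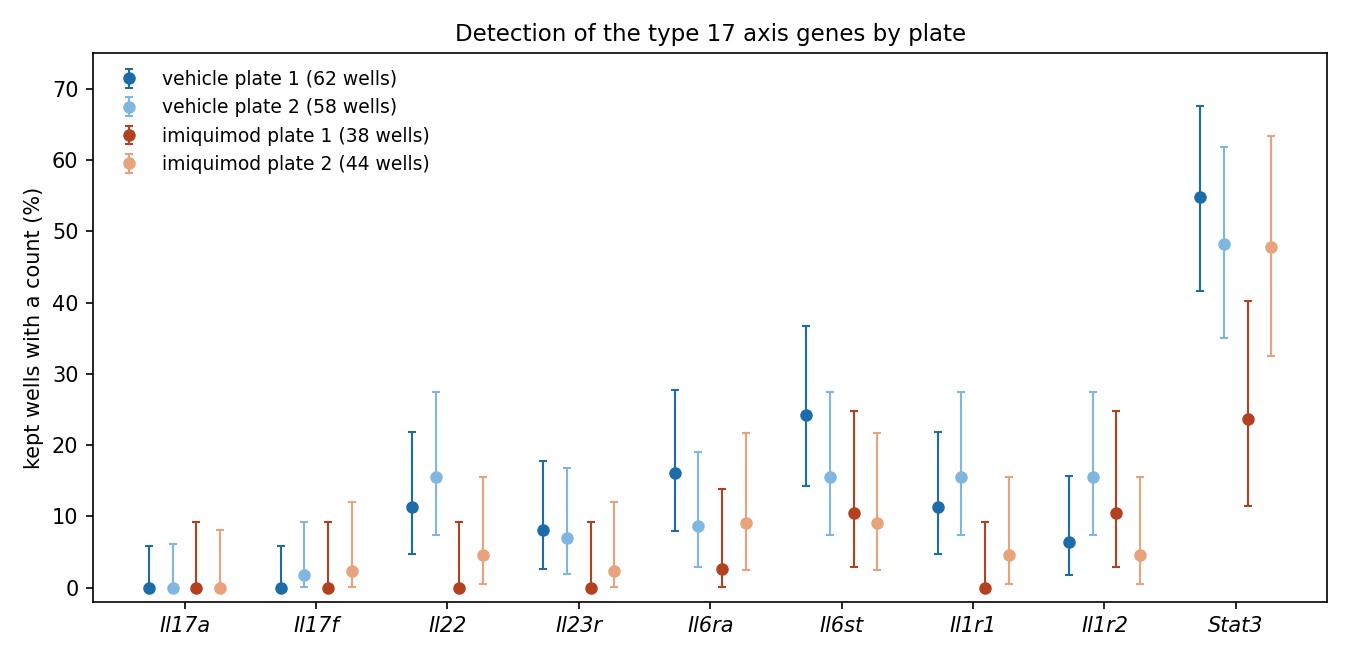
Share of kept single-cell wells with a count of each gene (percent, vertical axis) on each of the 4 plates; points are plates and bars are exact 95% binomial intervals over wells. Stat3 lay between 23.7% and 54.8%, and Il17a was at 0 on every plate.

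**Figure D2:**
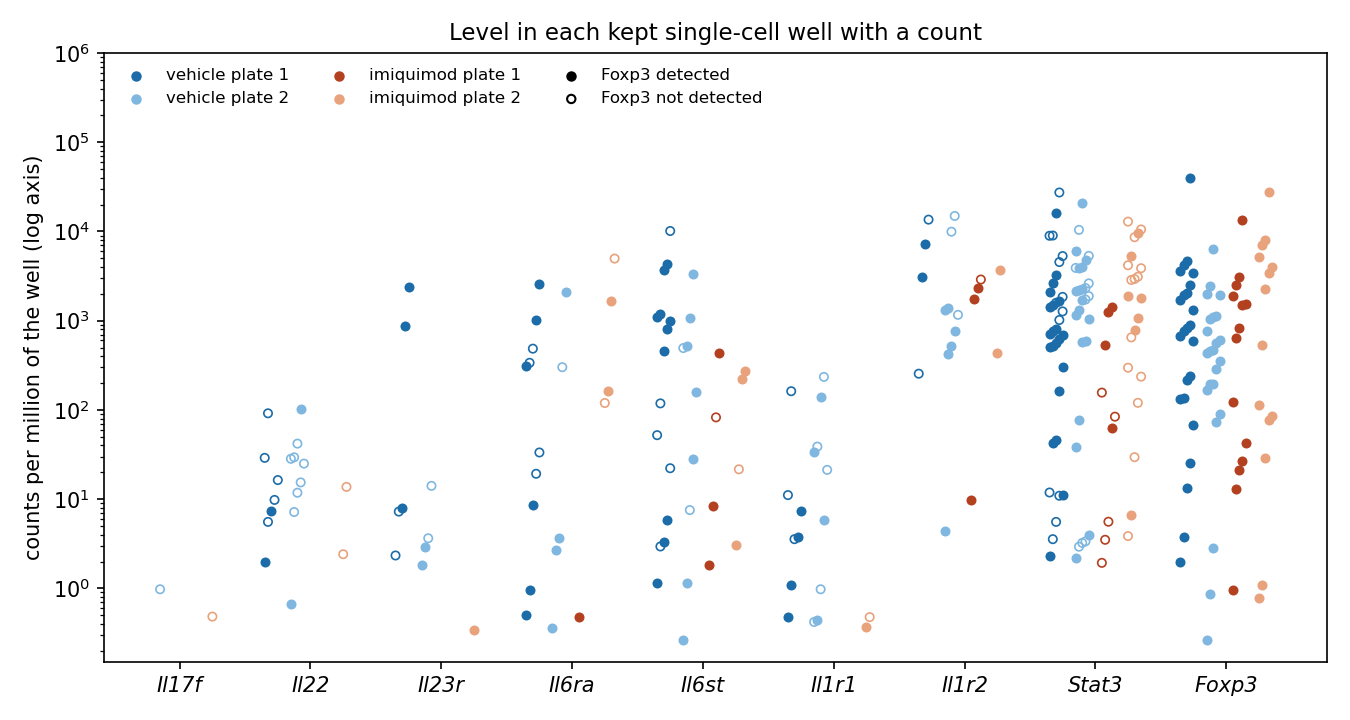
Level of 8 of the genes and of Foxp3 in each kept well with a count (CPM of the well, log axis), by plate colour; filled points are wells with a Foxp3 count and open points wells without. Il22 stayed at or below 101.5 CPM in every well, while 17 of the 19 Il1r2 wells held 10 CPM or more, with a median of 1393 CPM over all 19.

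Over the 4 plates, levels per kilobase of exon put Il1r2 (156.1 ± 68.8 CPM per kb, SD, n = 4 plates) and Stat3 (120 ± 72.7) first, and these neighbours differed by less than their spread. Il6st (11.2 ± 11.5), Il6ra (10.1 ± 9.04) and Il23r (4.11 ± 8.18) followed on the same scale and overlapped. Il22 (0.571 ± 0.684) and Il1r1 (0.513 ± 0.744) were alike within their spread, and Il17f was at 0.00249 ± 0.00288. Exon lengths came from GENCODE M21, made on an older assembly than that of the reads, and matched all 9 symbols. By share of wells, also as means over plates, Stat3 was first with 43.6 ± 13.7% (SD, n = 4 plates) and Il6st followed with 14.8 ± 6.82%. Il1r2 (9.26 ± 4.86%) and Il6ra (9.12 ± 5.52%) were alike within their spread.

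For treatment, mean shares of wells were lower on the imiquimod plates for 7 of the 8 detected genes, and none of these differences passed a test. Stat3 was at 51.6 ± 4.64% of vehicle wells and 35.7 ± 17.0% of imiquimod wells (SD, n = 2 plates each), Il6st at 19.9 ± 6.14% and 9.81 ± 1.01%, and Il6ra at 12.4 ± 5.31% and 5.86 ± 4.57%. Il22 and Il1r1 had the same values, 13.4 ± 2.99% and 2.27 ± 3.21%, and Il23r was at 7.48 ± 0.826% and 1.14 ± 1.61%. With 2 plates against 2 the exact two-sided permutation test cannot go below 0.333, the p found for Il22, Il23r, Il6st, Il1r1 and Stat3 (0.533 after Benjamini-Hochberg adjustment over the 8 genes). Il6ra and Il1r2 had an exact permutation p of 0.667, and Il17f, with 1 well per treatment, of 1. Of the 3 genes with a count in at least 20 kept wells, Il6st and Stat3 were detected less often on both imiquimod plates than on both vehicle plates, Stat3 by a small margin, and Il6ra was not. The background for that pattern was 54.1% of 4899 genes, with a median difference of -6.77 percentage points over all of them, so 2 of 3 is near what genes in general showed. Vehicle plates 1 and 2 had medians of 1040 and 1503 genes per kept well, and imiquimod plates 1 and 2 had medians of 975 and 1093, so the yields of the treatments overlapped. The part of yield in the differences of the 9 genes was not tested.

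In the fit over all genes, 7 of the 9 passed the filter on low counts and were tested, and 0 were called, where 0% of 14462 genes were called (1669 had an unadjusted p under 0.05, and DESeq2 called 3740). Il6st was lower in level on both imiquimod plates than on both vehicle plates, a pattern of 31.1% of all genes tested. Il6ra, Stat3 and Il1r2 did not show it after TMM scaling. Il22, Il23r and Il1r1 had this order, at 0 on imiquimod plate 1 and below 0.3 CPM on imiquimod plate 2. No fold is given for them. They passed the filter through the vehicle plates, so their order is not set against that share. The smallest adjusted p among the 7 was 0.437. Each plate held 1 treatment, so treatment and plate effects cannot be told apart. These p-values set the difference between treatments against the spread between plates of the same treatment.

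Co-detection with Foxp3 was compared within plates. A Foxp3 count was present in 75 kept wells and absent from the rest. Depth and yield moved with this class: the median well with Foxp3 held 1993 genes and the median well without it 945, and the share of wells with a T cell receptor or CD3 count was 94.7% and 85.8%. A well without a Foxp3 count is therefore not shown to hold a cell without Foxp3.

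Il6st was found with Foxp3 on every plate. It had a count in 41.7%, 30.4%, 21.4% and 21.4% of Foxp3-detected wells of vehicle plates 1 and 2 and imiquimod plates 1 and 2. The share in wells without Foxp3 was 13.2%, 5.71%, 4.17% and 3.33%. The lowest Foxp3-detected share was above the highest share without Foxp3, and the mean difference was 22.1 ± 5.40 percentage points (SD, n = 4 plates). Each imiquimod plate had only 4 wells with an Il6st count. The level showed the same order: 408 against 125.4 CPM, 221.6 against 8.42 CPM, 80.1 against 0.779 CPM and 43.8 against 1.94 CPM in sums of each class. These sums lean on few wells. On imiquimod plate 1 a single Foxp3-detected well with 2201 counts gave 98.7% of the plate's Il6st counts. On vehicle plate 2 a single Foxp3-detected well with 9935 counts gave 64.9%. Wells with Foxp3 held 90.5% of all Il6st counts and 52.2% of all counts of the kept wells, and 14 of the 17 wells with more than 100 Il6st counts had Foxp3.

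Stat3 was also detected more often with Foxp3 on every plate, with unequal margins. On the vehicle plates it was in 87.5% and 78.3% of Foxp3-detected wells and in 34.2% and 28.6% of the others. On the imiquimod plates it was in 28.6% and 50.0% of Foxp3-detected wells and in 20.8% and 46.7% of the others. The mean difference was 28.5 ± 26.6 percentage points (SD, n = 4 plates), so the spread between plates was nearly as large as the difference. In level Stat3 was at 1146 CPM with Foxp3 and 1739 CPM without it on vehicle plate 1, and at 1877 and 1201 CPM on vehicle plate 2. On the imiquimod plates it was at 307.97 against 3.73 CPM and 1596 against 1561 CPM, so it was higher with Foxp3 on 3 of 4 plates.

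Il1r2 was in 17.5 ± 7.82% of Foxp3-detected wells and 4.50 ± 3.54% of the others (SD, n = 4 plates), higher on 4 of 4 plates. Its level did not keep this order. With and without Foxp3 it was at 607.5 and 67.0 CPM on vehicle plate 1 and at 299.7 and 0 CPM on imiquimod plate 2. On vehicle plate 2 (192.9 and 790.4 CPM) and imiquimod plate 1 (357.2 and 454.0 CPM) it was lower with Foxp3. Il6ra was in 16.0 ± 7.40% and 5.01 ± 4.58%, again higher on 4 of 4 plates. In level Il6ra was at 95.3 against 43.3 CPM and 115.5 against 26.9 CPM on the vehicle plates. On the imiquimod plates it was at 0.0362 (a single count) against 0 CPM and 133.98 against 243.1 CPM, so it was higher with Foxp3 on 3 of 4 plates. On imiquimod plate 2 a single well without Foxp3 held 13387 counts, 39.2% of the Il6ra counts of all kept wells. Il23r and Il1r1 were detected more often with Foxp3 on 3 plates and in no well of imiquimod plate 1. For Il1r1 the mean difference was 3.92 percentage points and changed sign with detection at 10 CPM (-1.28) or 10 counts (-0.63) and in wells with at least 1000 genes (-1.37). Il22 went the other way: 4 wells with Foxp3 (5.33%) and 14 without it (11.0%) held a count, with a lower share on 3 plates and no count on the fourth. In sums of each class Il22 was at 0.0907 against 1.42 CPM and 0.545 against 4.32 CPM on the vehicle plates, and on imiquimod plate 2 at 0 against 0.451 CPM.

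The exact two-sided sign-flip permutation test over 4 plates cannot go below 0.125, the p found for Il6ra, Il6st, Il1r2 and Stat3 (0.25 after adjustment over the 8 detected genes). Il22, Il23r and Il1r1 had an exact permutation p of 0.25 (adjusted 0.286). Of the 3 genes with a count in at least 20 wells, Il6ra, Il6st and Stat3, all 3 were detected more often with Foxp3 on all 4 plates, where 32.9% of 4898 genes were, with a median difference of 8.96 percentage points over all genes. The differences of Il6st and Stat3 are above that median and the difference of Il6ra is close to it. There were 61 wells with Foxp3 and 60 without among those with at least 1000 genes, and their yields were not matched. In these, Il6st was in 20 against 6 wells, Stat3 in 45 against 29, Il6ra in 13 against 6 and Il1r2 in 13 against 3. After each well was thinned to 410000 counts, which left 72 wells with Foxp3 and 110 without, the counts were 19 against 6 for Il6st, 49 against 34 for Stat3, 9 against 7 for Il6ra and 13 against 5 for Il1r2.

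**Figure D3:**
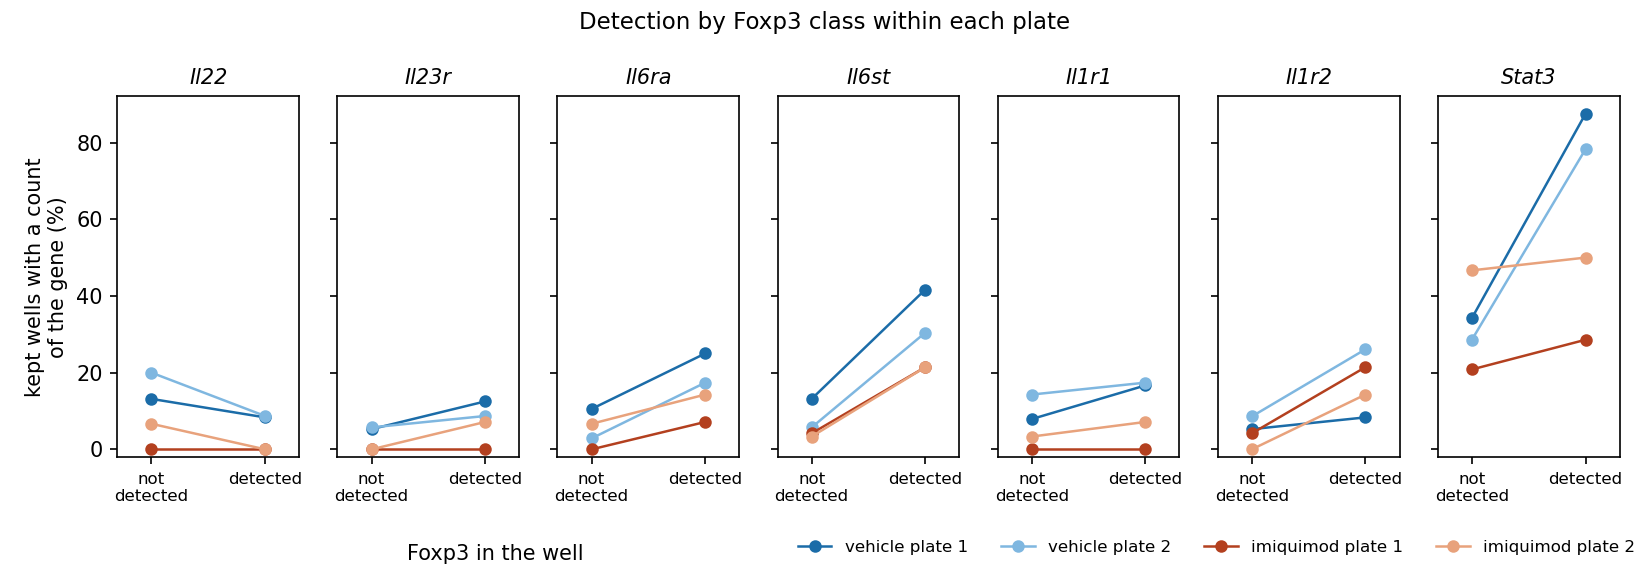
Share of kept wells with a count of each gene (percent, vertical axis) among wells without and with a Foxp3 count; each line is 1 of the 4 plates. The Il6st lines all go up, from between 3.33% and 13.2% to between 21.4% and 41.7%, while the Il22 lines go down or stay at 0.

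In edgeR's fit of summed counts with the plate as a block, 5 of the 9 genes were tested and 0 were called, where 0% of 8540 genes were called (1.72% had an unadjusted p under 0.05, and DESeq2 called 1480). Il6st was higher with Foxp3 on all 4 plates in level, a pattern of 5.56% of the genes tested, and the only one of the 5 to show it. Its log2 fold change was 4.46 ± 3.12 (SE, edgeR adjusted p 1), and DESeq2 gave 4.36 with an adjusted p of 0.014, the smallest over 11 alternatives, whose largest was 1. Il22 had -3.99 ± 1.82 (SE, edgeR p 0.039 and adjusted p 1), and DESeq2 gave -3.76 with an adjusted p of 0.00613, the smallest over 9 alternatives, whose largest was 1. The values were 1.24 ± 2.88 for Il6ra, 1.00 ± 0.95 for Stat3 and 1.70 ± 2.58 for Il1r2 (log2, SE), with edgeR adjusted p of 1 each. Whether the Foxp3 difference itself differed between treatments was tested by the interaction: 0% of 8540 genes passed in edgeR (3.31% had an unadjusted p under 0.05), and the 5 genes had adjusted p of 1.

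Of the kept wells, 61 (30.2%) held 2 or more of the 9 genes. None of the 9 was found in 79 kept wells, 1 in 62, 2 in 40, 3 in 17, 4 in 2 and 5 in 2. The share of wells with Foxp3 went from 16.5% at 0 genes to 41.9% at 1, 50.0% at 2 and 76.5% at 3, and the median yield went from 749 to 1249, 1626 and 2680 genes with it. At 4 and 5 genes, with 2 wells each, 100% and 50.0% of wells had Foxp3 and the median yields were 4097 and 1689 genes. Both IL-6 receptor chains, Il6ra and Il6st, were found together in 4 wells, 3 of them with Foxp3, which is 20.0% of the Il6ra wells and 12.5% of the Il6st wells. Of the wells without Il6ra, 15.4% held Il6st, and of the wells without Il6st, 9.41% held Il6ra. IL-6 bound to a membrane receptor signals through both chains, and a chain without a count at these depths is not shown to be absent. Stat3 was present in 15 of 20 Il6ra wells, 22 of 32 Il6st wells, 15 of 18 Il1r1 wells and 12 of 19 Il1r2 wells, against 45.5% of all kept wells. It was present in 8 of 18 Il22 wells (44.4%) and 4 of 10 Il23r wells (40.0%). The IL-1 receptors Il1r1 and Il1r2 were found together in 2 wells. That is 11.1% of the Il1r1 wells, and 9.24% of the wells without Il1r1 held Il1r2. Il22 and Il23r shared 4 wells, which is 22.2% of the Il22 wells and 40.0% of the Il23r wells. Of the wells without Il22, 3.26% held Il23r, and of the wells without Il23r, 7.29% held Il22.

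Across all kept wells, the genes most like Stat3 in log2(CPM + 1), out of 4898 with a count in at least 20 wells, were Gm46295 (Pearson r = 0.58), Stat4 (0.36) and E130112N10Rik (0.36). For Il6st they were Pde4d (0.39), Gm7854 (0.38) and Syn3 (0.38), and for Il6ra Wapl (0.42), Fgfr1op2 (0.40) and Gm38984 (0.36). These are descriptions over wells that share plates and differ in yield: r with the log2 number of genes per well was 0.37 for Stat3, 0.24 for Il6st and 0.23 for Il6ra. With Foxp3, r was 0.26 for Stat3, 0.28 for Il6st and -0.02 for Il6ra, and between Il6ra and Il6st it was 0.01.

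A list of 52 other genes of these pathways gave the surroundings of the 9. Of these, 48 had a count in a kept well, and the cytokine subunits Il1a, Il23a and Il12b and the chemokine Ccl20 had none. Among type 17 transcription factors, Rora was in 55.9% of wells, Runx1 in 50.0%, Nfkbiz in 31.2% and Hif1a in 27.2%. The kinases Jak1 and Jak2, which act on gp130, were each in 33.2% of wells. The IL-23 receptor partner Il12rb1 was in 9.90%. Among IL-1 family receptors, the IL-33 receptor Il1rl1 was in 27.2%, and the IL-18 receptor chains Il18rap and Il18r1 in 15.3% and 13.9%. The adaptor kinase Irak2 was in 24.8%, the IL-17 receptor Il17ra in 10.9%, the sheddase Adam10 in 16.3%, and the homing receptors Cxcr6 and Ccr6 in 15.8% and 12.4%.

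Of the 52 genes, 44 were tested for treatment and 0 passed, with 23 above 0 and a median log2 fold change of 0.04, where the median of all 14462 genes was -0.26. For Foxp3 class 37 were tested and 0 passed, with 20 above 0 and a median of 0.03. Of the 22 with a count in at least 20 wells, 20 were detected less often on both imiquimod plates and 0 more often on both, against 54.1% and 4.49% of all such genes, and 8 (36.4%) were detected more often with Foxp3 on all 4 plates, near the 32.9% of all such genes.

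The wells of 10 cells gave a second view of the same sort. They held between 710021 and 9159522 counts, and Foxp3 was found in 16 of 16, at 43.3 to 1237 CPM. Their labels give no treatment, so the plate on which they lay is given only as a place. In a well of 10 cells, fewer cells with a transcript and less of it per cell cannot be told apart.

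Stat3 was found in 16 of 16 of these wells, with a median of 1010 CPM and a range from 1.41 to 2579 CPM. The 4 wells on imiquimod plate 1 held 131.5 to 259.7 CPM, below 11 of the other 12, which held 787 to 2579 CPM. The remaining well held 1 Stat3 count and was the shallowest. Single-cell wells of imiquimod plate 1 were also the lowest for Stat3, as given above.

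Il1r2 was found in 15 of 16 wells of 10 cells, with a median of 356.2 CPM and a highest value of 2484 CPM. If kept single-cell wells set the chance per cell, 62.8% of wells of 10 would have held it. The same arithmetic on kept wells gives 99.8% for Stat3, which was in all 16, 82.2% for Il6st, found in 9, and 64.7% for Il6ra, found in 11. On all single-cell wells it gives 97.1% for Stat3, 63.1% for Il6st and 48.0% for Il6ra. For Il6ra, all 8 wells on the vehicle plates held a count (1.86 to 565 CPM), and 3 of the 8 on the imiquimod plates did, at 2.38 CPM at most. Il6st reached 1104 CPM in 1 well on imiquimod plate 1. These shares of 16 wells have wide intervals, such as 29.9% to 80.2% for Il6st (exact 95% binomial).

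Il1r1 was found in 7 of 16 wells, 4 of them between 39.7 and 336.2 CPM and the other 3 with 1 count each. Il23r was found in 5 of 16, at up to 218.5 CPM. Il22 had 1 count in 1 well. By the same arithmetic, kept single-cell wells would give 60.7% of wells and all single-cell wells 51.1%, and no test of that difference was made. Il17f had no count, which allows up to 18.8% of such wells. Il17a, absent from every single-cell well, had 33 counts (16.8 CPM) in 1 well of 10 cells on imiquimod plate 1, which held 1104 CPM of Il6st, 247.5 CPM of Stat3, 495 CPM of Il1r2, 1237 CPM of Foxp3 and no Il22 or Il23r count.

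**Figure D4:**
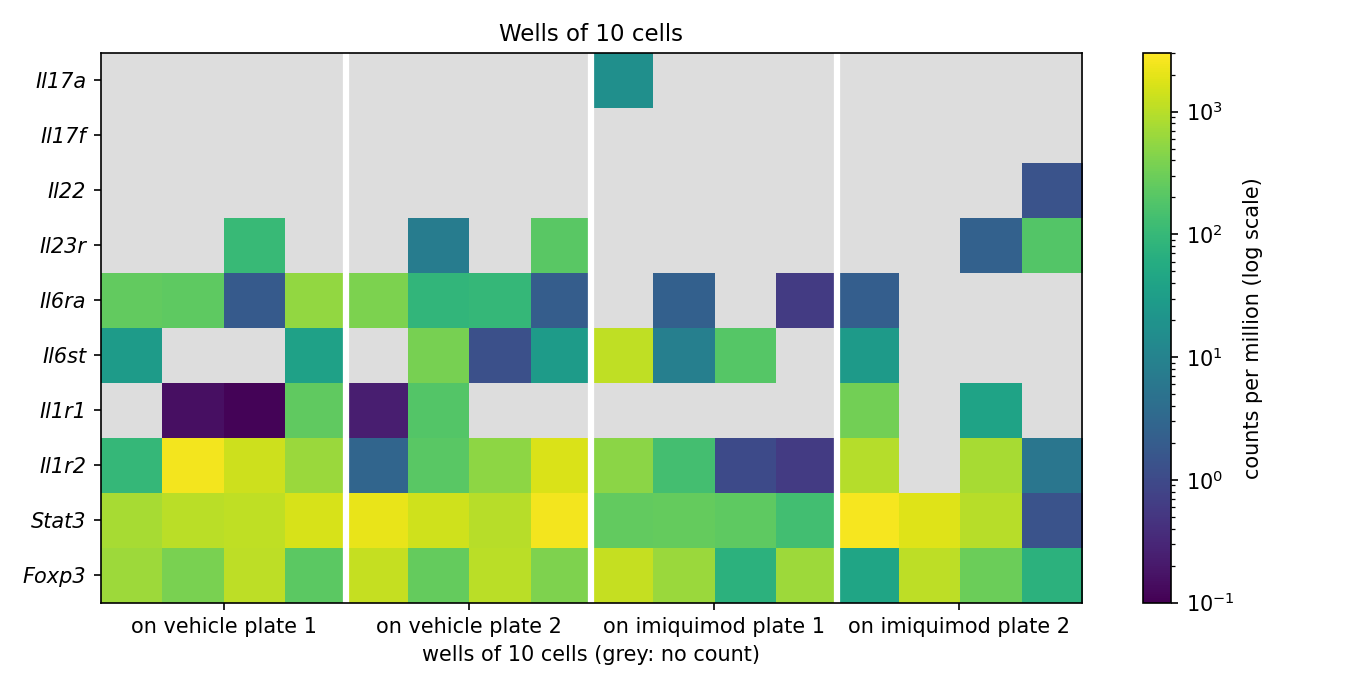
Level of the 9 genes and Foxp3 (rows) in the 16 wells of 10 cells (columns, grouped by the plate they lay on), as CPM on a log colour scale; grey marks no count. Stat3 and Foxp3 had a count in all 16 wells, Il17a in 1 and Il17f in none.

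Counting could affect some of these values. Stat3 overlaps Stat5a on the opposite strand, and the strand setting of the counting is not given in the sources used here. Stat5a had a count in 38 kept wells, 27 of them with Stat3, and 65 Stat3 wells held no Stat5a. Il1r2 overlaps Gm16894, found in 14 wells, 9 of them with Il1r2.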

How the data were processed

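Single Treg cells, wells of 10 cells and empty wells were profiled by plate-based RNA sequencing. The table deposited by the authors holds raw read counts for each gene symbol in each well. The submitters' processing notes name Trimmomatic 0.39, STAR 2.7.3a, SAMtools 1.12 and the build mm39. How reads were counted, with which strand setting and annotation, is not given in the sources used here. Per the labels' protocols, cDNA was primed with oligo dT.

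Wells were grouped by the labels, and plates by the numbering in the titles. The plate was the replicate. Single-cell wells with at least 500 genes and 10000 counts were kept (202 of 348, with 47481 to 5946386 counts), and no doublet caller was run on sorted wells. Counts were summed per plate, or per plate and Foxp3 class with the plate as a block (the classes share plates, so their sums are paired), and tested with edgeR 4.0.16 (quasi-likelihood, filterByExpr, TMM, Benjamini-Hochberg, threshold 0.05) in R 4.3.3. The fits were tested on simulated data. Shares were compared by exact permutation over plates with scipy 1.17.1. Alternatives were DESeq2 1.42.0, its size factors, limma 3.58.1 on log2(CPM + 1), other filters, thinning, and leaving out plates; those for the interaction were added after seeing the data. The 9 genes, the pathway lists and the markers were chosen with earlier results of these data known. The 9 genes and Foxp3 are always named, as are up to 4 genes per list of highest share of wells. The values of some genes of these lists are left out here. A limit for a count of 0 is 3 counts of the total.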

Additional observations from a re-analysis of the deposited data

How the results depend on the processing

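The count of genes called, 0 for imiquimod against vehicle, was 3740 with DESeq2, 9 with no expression filter, and between 0 and 794 when 1 plate was left out (1.02% of genes tested without imiquimod plate 1 and 3.91% without imiquimod plate 2, where the lone plate is assumed to vary like the others). For Foxp3 class it was 1480 with DESeq2 and 24 with limma, and for the interaction 1814 with DESeq2, 1 with wells of at least 1000 genes, and between 0 and 29 when 1 plate was left out. Without the replicate block, that is without pairing the classes by plate, 0 genes were called for Foxp3 class and 2.18% had an unadjusted p under 0.05, against 1.72% with it. No paired analysis was possible between treatments because plates are nested in treatments.

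For treatment, DESeq2 called 25.9% of all genes tested and 2 of the 7 tested here, Il23r and Il1r1, which passed the filter through the vehicle plates (adjusted p 0.00122 and 0.000935, with 0.759 the largest over the alternatives of each), and no other alternative called any of the 9. DESeq2 scaling moved the median log2 fold change of all genes from -0.26 to 0.11. The log2 fold change of imiquimod over vehicle changed sign for Il6ra with limma (-0.27) and lay between -11.44 and 1.68 when 1 plate was left out, and for Stat3 it lay between -2.65 and 0.44. For Il1r2 it was 0.38 with DESeq2 and with its size factors, 0.35 with wells of at least 1000 genes, 0.16 without the highest well per plate, and between -1.41 and 0.55 when 1 plate was left out. The difference in share (percentage points) lay between -0.86 and 1.41 for Il17f and between -7.98 and 1.08 for Il1r2 when 1 plate was left out, and was 0.94 for Il1r2 with wells of at least 1000 genes. For Il1r1 by Foxp3 class it was -1.28 at 10 CPM, -0.63 at 10 counts and -1.37 with wells of at least 1000 genes, against 3.92. The causes were not tested. Across the alternatives, 36 of 44 log2 fold changes for treatment of Il6ra, Il6st, Stat3 and Il1r2 kept their direction and side of the threshold. The other 8 changed sign, and Il22, Il23r and Il1r1 were not in this count. For Foxp3 class, counted over the same genes and Il22, 51 of 53 kept both. The other 2, Il6st and Il22 in DESeq2, passed the threshold. The small number of plates limits every comparison, and a gene in few wells rests on those wells.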
